A study of Mus musculus with 18 samples.

Results

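Overexpression of Nmnat1 was compared with an empty vector in electroporated cells of the newborn mouse retina. The comparison holds 6 of the 18 libraries of the series, 3 of Nmnat1 overexpression and 3 of empty vector, chosen by the label of each library and not by any measured value. All came from ICR mice, an outbred strain. Retinas of postnatal day 0.5 were electroporated with the plasmid under study together with an EGFP plasmid, kept as explants on a filter for 3 days, and the EGFP-positive cells were sorted and sequenced as bulk RNA. The table also holds 3 libraries of Nmnat2 overexpression, handled in the same way, which shared the fit and served for comparison. The rest of the series are 3 scramble shRNA, 3 Nmnat1 knockdown and 3 Nmnat2 knockdown libraries in a table of their own. The labels name no promoter for the overexpression plasmids, and nothing in them ties a library to its own animal or explant. The p-values therefore speak of the spread among these libraries alone, part of which may be technical.

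NMNAT enzymes join nicotinamide mononucleotide and ATP to make NAD, the last step shared by its salvage and de novo routes. NMNAT1 is the nuclear form and its mutation in people causes Leber congenital amaurosis, an early retinal blindness. NMNAT2 is the form of the cytosol and Golgi that protects axons, and NMNAT3 is assigned to mitochondria. At birth the mouse retina still divides: rods and bipolar cells are being made in number, and the last amacrine cells leave the cycle, so that sorted cells hold progenitors and young neurons of several types.

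Values are given in ppm, a gene's share of its library's column sum times 1e+06, and since the deposited values are scaled by gene length, levels of different genes can be set side by side only on that per-length scale. The libraries were of like depth, with a relative depth of 0.802 to 1.13 of the median library, and 1 ppm of a transcript of 1 kb stood for 11.3 to 16.8 reads. The libraries numbered 1 stood apart in all 3 groups of the table. Principal component 1, with 35.5% of the variance, placed them at -24.5 (empty vector), -33.9 (Nmnat1) and -91.4 (Nmnat2), and the other 6 between 4.14 and 50.0. Within each group, libraries 2 and 3 were much closer to each other than either was to library 1: among 9711 genes of at least 10 ppm, 40 to 62 differed by over 2-fold between libraries 2 and 3, and 162 to 760 between library 1 and one of them. Libraries 2 and 3 still differed by more than counting noise (median chi-square per gene 2.20 to 3.07, where counting alone gives 0.455). Repeat preparations of the same RNA can also exceed counting noise, so this does not show that they are separate biological samples. They were kept as separate samples because the labels list them so. Eif2s3y, a gene of the Y chromosome, gave 28.9 and 15.9 ppm in library 1 of the empty vector and of Nmnat1, and 118 to 132 ppm in the other 4 libraries of the comparison. The Nmnat2 libraries did not share this split, at 39.7, 57.2 and 43.1 ppm. Because of this pattern list counts and leading genes are also given without the 3 libraries numbered 1, a fit that called 4.43% of all genes higher and 3.61% lower, and the part that the source of libraries 2 and 3 has in those values was not tested.

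The overexpressed gene checked the labels. Nmnat1 (chromosome 4, 149467572 to 149485202, minus strand, GRCm38) was at 22.6, 18.7 and 21.3 ppm in the empty-vector libraries and at 27832, 15347 and 14797 ppm in the Nmnat1 libraries. The groups were far apart, and library 1 of the Nmnat1 group held the most. On the log2(ppm + 1) scale the difference was 9.73 ± 0.21 (SE, n = 3 per group; adjusted p = 3.43e-09 by limma across all genes), and an exact two-sided permutation test of the 3 against 3 libraries gave p = 0.1, the smallest that it can give. The transcript made up 1.48% to 2.78% of the column sum in the Nmnat1 libraries. Values per gene do not separate plasmid from chromosomal transcripts.

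The other family members were scarce. Nmnat2 was at 2.71, 1.14 and 1.80 ppm with the empty vector and at 6.497, 3.12 and 6.08 ppm with Nmnat1, a higher level in each Nmnat1 library that did not pass in the fit of 9 libraries (1.10 ± 0.24 in log2, adjusted p = 0.122 by limma) and passed without the libraries numbered 1 (adjusted p = 0.0389). Nmnat3 was at 2.17, 1.71 and 2.11 ppm against 0.759, 1.43 and 0.151 ppm. The Nmnat3 groups did not overlap either, but the difference (-0.81 ± 0.39, adjusted p = 0.563 by limma) did not pass, at levels near the 1 ppm of the filter.

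**Figure D1:**
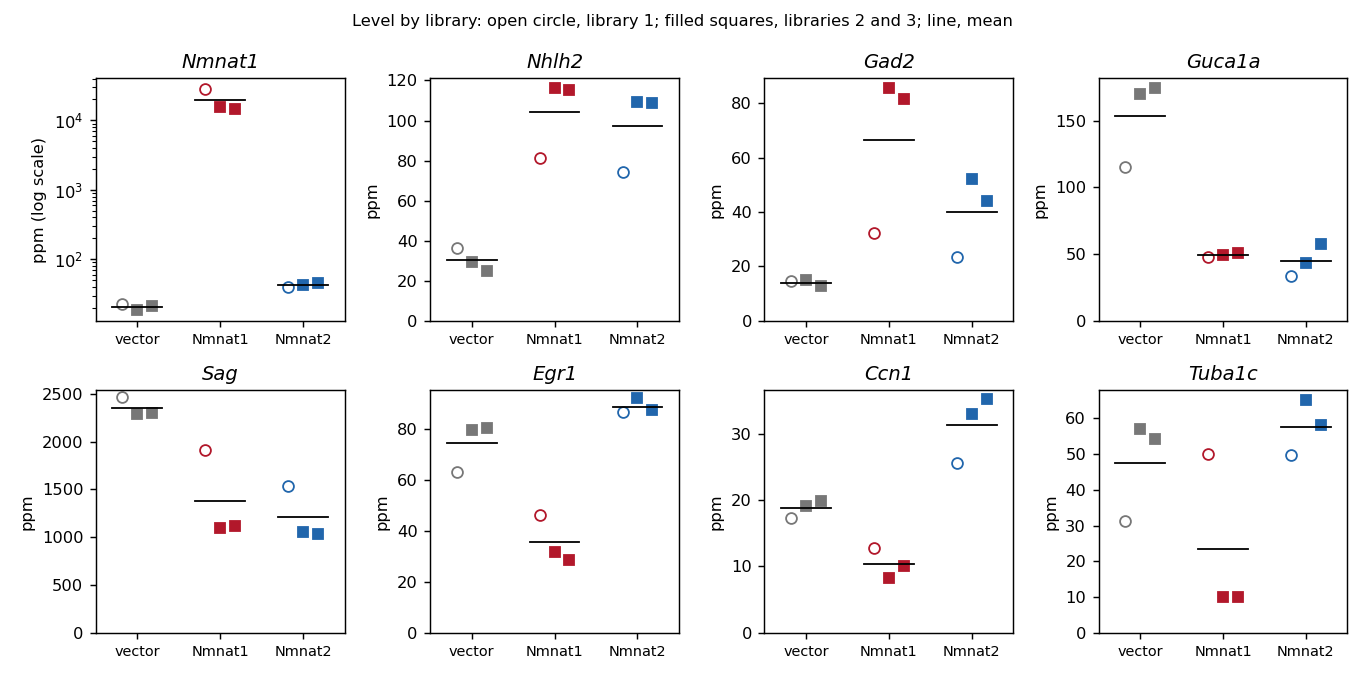
Level in ppm of 8 genes in each library of the overexpression table, by group (empty vector, Nmnat1, Nmnat2); the line is the mean of 3 libraries, open circles are the libraries numbered 1, and the axis of Nmnat1 is logarithmic. Nhlh2 and Gad2 were higher and Guca1a, Sag and Egr1 lower in every Nmnat1 library than in any empty-vector library, whereas Tuba1c was low only in Nmnat1 libraries 2 and 3.

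Across the transcriptome 25 of 20725 genes passed an adjusted p of 0.05 (0.121% of the genes tested; limma, two-sided, Benjamini-Hochberg), 19 higher (0.0917%) and 6 lower (0.029%) with Nmnat1, and 1983 genes had an unadjusted p under 0.05. Apart from Nmnat1, the 18 genes that rose included genes of young neurons and of synapses, with gains of about 2-fold to 3.45-fold. Nhlh2, a bHLH transcription factor of young neurons, was at 36.4, 29.2 and 25.0 ppm with the empty vector and at 81.4, 116 and 115 ppm with Nmnat1 (1.75 ± 0.20 in log2, adjusted p = 0.0141 by limma). It lies on chromosome 3 (102010076 to 102015492, plus strand). Lhfp, which encodes a membrane protein of the tetraspan kind, stood at 45.1, 40.6 and 39.8 ppm against 113, 128 and 149 ppm (1.61 ± 0.12, adjusted p = 0.000772 by limma). Its gene overlaps the antisense gene Gm42901, and without strand in the library kit the reads of both cannot be told apart. Plk2, a kinase induced by neuronal activity and by p53, was at 19.3, 25.1 and 22.02 ppm against 59.7, 58.2 and 61.0 ppm (1.40 ± 0.13, adjusted p = 0.00318 by limma). For all 3 genes the lowest Nmnat1 library was above the highest empty-vector library by at least the width of the empty-vector group.

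Genes of synapses, adhesion and receptors were among those that rose. Gria4, an AMPA-type glutamate receptor subunit, went from 12.3, 13.5 and 14.4 ppm to 30.7, 40.3 and 42.3 ppm. Ret, the receptor of GDNF-family ligands, was at 13.0, 10.2 and 13.6 ppm against 33.4, 32.6 and 35.2 ppm. Drd1, a dopamine receptor, was at 13.2, 10.6 and 8.14 ppm against 24.5, 30.2 and 40.4 ppm. The adjusted p of these was 0.0129, 0.0141 and 0.0352 by limma. Pcdh8, a protocadherin, gained 1.58 ± 0.19 in log2, Ptprt, a receptor tyrosine phosphatase, 1.54 ± 0.20, and Dlg2, a scaffold of the postsynaptic density, 1.03 ± 0.14. Hpca, the neuronal calcium sensor hippocalcin, gained 1.14 ± 0.16 and Ina, the neurofilament protein alpha-internexin, 1.13 ± 0.17. Tubb2a, a neuronal beta-tubulin, was the most abundant of the genes that rose, apart from Nmnat1, at 148, 129 and 140 ppm against 271, 357 and 360 ppm (1.23 ± 0.16). Reads of Tubb2a may be shared with its near-identical neighbours, so its value is uncertain, and Gria4, Dlg2, Pcdh8, Spsb4, Hpca and Ina each overlap another gene.

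Regulators made up the remainder. Six2, a homeobox factor, was at 9.36, 5.70 and 7.15 ppm against 20.9, 23.8 and 20.3 ppm, and Zfp423, a zinc-finger cofactor of EBF proteins, at 22.2, 26.4 and 24.1 ppm against 49.8, 45.1 and 49.8 ppm. Socs2, an inhibitor of cytokine and growth hormone signalling, was at 28.7, 28.6 and 23.001 ppm against 52.9, 71.8 and 67.2 ppm. The immediate early gene Ier5 was at 47.8, 42.1 and 41.9 ppm against 89.9, 112 and 107 ppm. Zfp804a and Spsb4 gained 1.34 ± 0.18 and 1.44 ± 0.17 in log2. Of 25 settings, the main fit among them, the 18 genes that rose passed in 12 (Drd1, Ina and Zfp423) to 23 (Lhfp). Median-of-ratios scaling lost Drd1, Ina, Zfp423, Socs2, Hpca, Ier5, Six2, Dlg2, Ptprt, Tubb2a and Zfp804a. None of these 18 genes had an Nmnat1 library within the range of the empty vector, and in 15 of the 24 genes called in either direction Nmnat1 library 1 was the nearest of its group to the empty vector (62.5%, against 55.2% of the 3689 genes whose groups did not overlap).

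**Figure D2:**
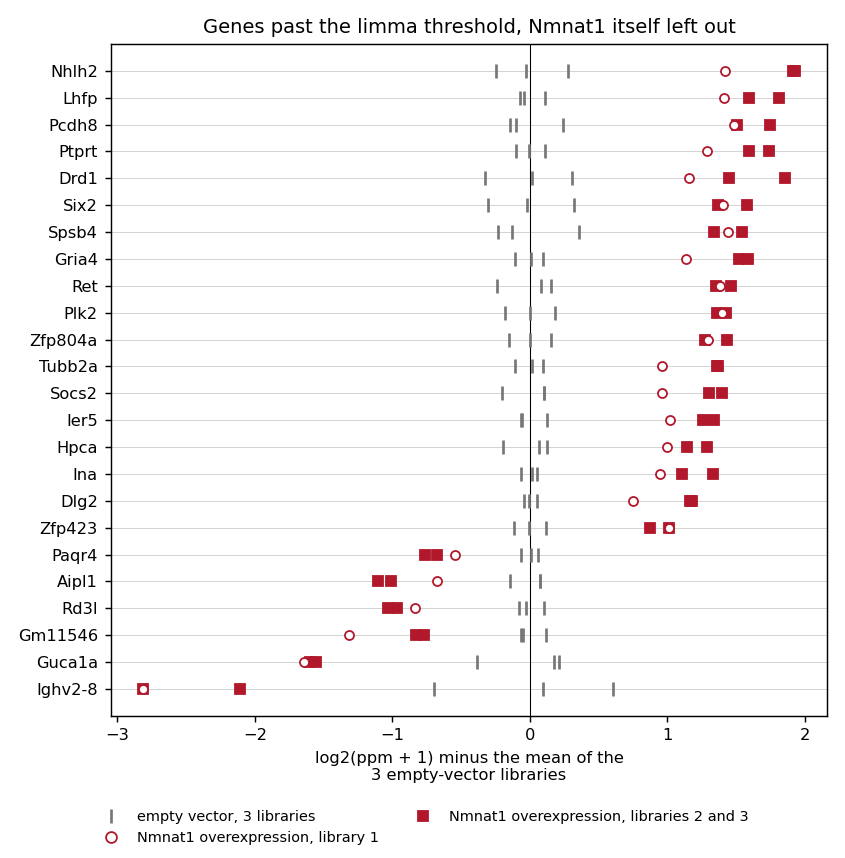
Difference of each library from the mean of the 3 empty-vector libraries, in log2(ppm + 1), for the 24 genes past the threshold besides Nmnat1; ticks are empty-vector libraries and red symbols Nmnat1 libraries. In all 24 genes the 3 Nmnat1 libraries lie outside the empty-vector range, between 0.66 and 2.58 log2 units away on average.

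Of the 6 genes that fell, 2 are genes of the photoreceptor light response. Guca1a, the calcium sensor GCAP1 that switches retinal guanylate cyclase, was at 115, 170 and 175 ppm with the empty vector and at 47.5, 49.2 and 50.7 ppm with Nmnat1 (-1.60 ± 0.20 in log2, 3.12-fold lower, adjusted p = 0.0192 by limma). Aipl1, a chaperone that photoreceptor phosphodiesterase needs, was at 85.2, 99.3 and 99.4 ppm against 58.6, 46.3 and 43.3 ppm (-0.93 ± 0.13, adjusted p = 0.0340 by limma). Of 25 settings, the main fit among them, Guca1a passed in 17 and Aipl1 in 13. Median-of-ratios scaling lost both (adjusted p = 0.0542 and 0.0702 by limma). Rd3l, a gene related to the retinal degeneration gene Rd3, was at 69.8, 63.7 and 61.4 ppm against 36.0, 31.2 and 32.8 ppm (-0.94 ± 0.11). Paqr4, a progestin and adipoQ receptor family member whose gene overlaps Pkmyt1, was at 170, 164 and 156 ppm against 112, 95.8 and 102 ppm. The last of the 6 are annotated as pseudogenes, Gm11546 (-0.97 ± 0.15) and the immunoglobulin segment Ighv2-8, at 3.32, 6.49 and 9.70 ppm against 0, 0.625 and 0 ppm. Reads of both are uncertain, because such sequences can be near copies of other genes.

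The 250 bases before the RefSeq start of the called genes that belong to a retinal cell type list are shown because 2 of them are photoreceptor genes that fell, and the promoters of such genes are known to hold sites of the homeobox factors Crx and Otx2. Capitals mark the letters TAATCC, the core that these factors prefer, or their reverse complement GGATTA; strands are those of the gene (RefSeq, GRCm38.p6).
Guca1a, chr17:47400607-47400856, minus strand: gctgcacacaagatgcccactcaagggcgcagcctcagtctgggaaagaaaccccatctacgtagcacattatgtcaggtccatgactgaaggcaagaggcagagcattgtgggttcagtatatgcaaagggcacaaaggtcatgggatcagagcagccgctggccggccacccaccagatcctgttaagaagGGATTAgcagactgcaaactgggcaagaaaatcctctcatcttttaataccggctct
Aipl1, chr11:72037510-72037759, minus strand: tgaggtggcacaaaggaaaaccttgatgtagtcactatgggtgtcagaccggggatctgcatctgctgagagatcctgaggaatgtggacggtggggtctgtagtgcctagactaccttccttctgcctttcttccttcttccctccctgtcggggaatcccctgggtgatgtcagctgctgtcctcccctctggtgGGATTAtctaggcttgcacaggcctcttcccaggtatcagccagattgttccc
Nhlh2, chr3:102009895-102010144, plus strand: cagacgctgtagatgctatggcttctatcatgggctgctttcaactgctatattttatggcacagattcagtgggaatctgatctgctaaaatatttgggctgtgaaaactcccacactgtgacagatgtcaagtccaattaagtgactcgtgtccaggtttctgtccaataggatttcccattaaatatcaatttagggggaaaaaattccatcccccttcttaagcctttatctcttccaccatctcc

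The match begins 57 bases before the start in Guca1a and 53 bases before it in Aipl1, and the Nhlh2 window holds none. The letters stand on either strand in 2054 of 32851 windows of this length (6.25%), or at 1949 of 27025 genes (7.21%). They stand at 9 of the 21 rod list genes with a promoter in the table (42.9%), at 2 of 11 cone genes (18.2%) and at 2 of 17 amacrine genes (11.8%). A match is a description of letters, not of a bound site.

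Amacrine cells, the inhibitory interneurons of the inner retina, were the retinal type whose genes stood highest. Of 21 genes in the list, 19 passed the filter, Slc18a3 and Th being too low; among these 19 the empty-vector mean was under 1 ppm for Chat alone. Their median difference was 1.26 in log2, against -0.04 over all genes tested, and 1.64 without the libraries numbered 1. In the fit of 9 libraries 1 of 19 rose, Nhlh2, and none fell. In 13 of 19 every Nmnat1 library was above every empty-vector library (7.74% of all genes tested were higher in this sense), and in 1, the glycine transporter gene Slc6a9, every one was below (10.1% of all genes). Slc6a9 was at 155.9, 155.1 and 151.93 ppm against 151.83, 116.7 and 112.1 ppm (adjusted p = 0.554 by limma). Nmnat1 library 1 was thus barely below the empty vector, and the gene overlaps B4galt2, Ccdc24 and Gm17114. Amacrine cell number and RNA per cell cannot be told apart in bulk samples.

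The genes that specify amacrine cells were among them. Ptf1a, the bHLH factor required for amacrine and horizontal cells, was at 7.37, 7.06 and 6.07 ppm with the empty vector and at 13.8, 34.7 and 34.9 ppm with Nmnat1. Prdm13, which acts with Ptf1a in GABAergic amacrine cells, was at 57.4, 53.9 and 48.0 ppm against 107, 183 and 191 ppm. Pax6, needed for amacrine fate and for progenitors, was at 82.9, 101 and 100 ppm against 163, 270 and 262 ppm. In each of these, libraries 2 and 3 of Nmnat1 were well above library 1, and library 1 was above the empty vector. None passed with 9 libraries (adjusted p = 0.316, 0.0611 and 0.115 by limma), and all did without the libraries numbered 1 (0.000335, 0.000128 and 0.000128).

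Gad2, which makes the transmitter GABA, showed the largest difference of the list: 14.5, 15.0 and 12.7 ppm against 32.2, 85.5 and 81.6 ppm (2.04 ± 0.37 in log2, adjusted p = 0.0720 by limma). Its paralogue Gad1 was at 4.91, 4.01 and 3.04 ppm against 2.06, 4.50 and 5.54 ppm, so that its groups overlapped. Slc32a1, which loads GABA and glycine into vesicles, was at 1.30, 1.71 and 1.45 ppm against 3.16, 5.07 and 5.86 ppm. Calb2, the calcium buffer calretinin of amacrine and ganglion cells, was at 47.3, 34.8 and 36.8 ppm against 89.3, 132 and 127 ppm (1.52 ± 0.24, adjusted p = 0.0525 by limma). Ebf3, a factor of late amacrine and ganglion neurons, was at 6.53, 5.84 and 4.42 ppm against 19.4, 16.0 and 15.1 ppm, with library 1 the highest of its group. For Tfap2a and Tfap2b, factors of postmitotic amacrine cells, library 1 of Nmnat1 stayed at the empty-vector level: Tfap2b was at 10.6, 13.4 and 11.3 ppm against 11.6, 51.6 and 50.2 ppm. Barhl2, Neurod2, Elavl3, Bhlhe22 and Neurod6 were higher in each Nmnat1 library without passing (adjusted p between 0.164 and 0.741 by limma).

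Rod genes stood at the other end. Of 31 genes in the rod list 28 were tested, with a median difference of -0.82 in log2 (-1.05 without the libraries numbered 1). Guca1a and Aipl1 fell, no rod gene rose, and in 21 of 28 every Nmnat1 library was below every empty-vector library (10.1% of all genes tested). The fit without the libraries numbered 1 called 24 of 28 lower (3.61% of all genes tested). In 20 of the 21 genes without overlap, Nmnat1 library 1 lay nearest to the empty vector, with a median distance of 0.33 in log2, against 1.14 and 1.08 for libraries 2 and 3. Sag, the rod arrestin, was at 2464, 2291 and 2297 ppm with the empty vector and at 1911, 1096 and 1115 ppm with Nmnat1 (-0.82 ± 0.22, adjusted p = 0.191 by limma, and 0.000128 without the libraries numbered 1). Rcvrn, the calcium sensor recoverin, was at 133, 167 and 169 ppm against 91.4, 51.1 and 58.7 ppm (-1.25 ± 0.21, adjusted p = 0.0581 by limma, and 0.000335 without the libraries numbered 1), and Guca1b, the gene next to Guca1a that encodes GCAP2, at 60.7, 74.1 and 70.1 ppm against 37.2, 28.7 and 20.5 ppm. These genes of calcium feedback, Guca1a, Guca1b and Rcvrn, had the most negative differences of the rod list.

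Genes of discs and of the phosphodiesterase lay lower as well. Prph2 and Rom1, tetraspanins of the disc rim, were at 468, 443 and 437 ppm against 359, 201 and 204 ppm, and at 988, 1037 and 1087 ppm against 823, 563 and 576 ppm. The phosphodiesterase subunit Pde6b was at 211, 176 and 183 ppm against 150, 79.4 and 80.9 ppm, and Pde6g at 942, 897 and 844 ppm against 796, 375 and 318 ppm. For Rp1, Cngb1 and Tulp1, genes of the axoneme, the rod channel and vesicle transport, the differences were -0.96 ± 0.25, -0.93 ± 0.26 and -0.82 ± 0.16. Not all rod genes shared this. The lipid transporter gene Abca4 was at 74.2, 63.8 and 68.1 ppm against 68.4, 62.6 and 63.4 ppm. It overlapped between the groups, as did Gnat1, Gnb1 and Pdc.

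**Figure D3:**
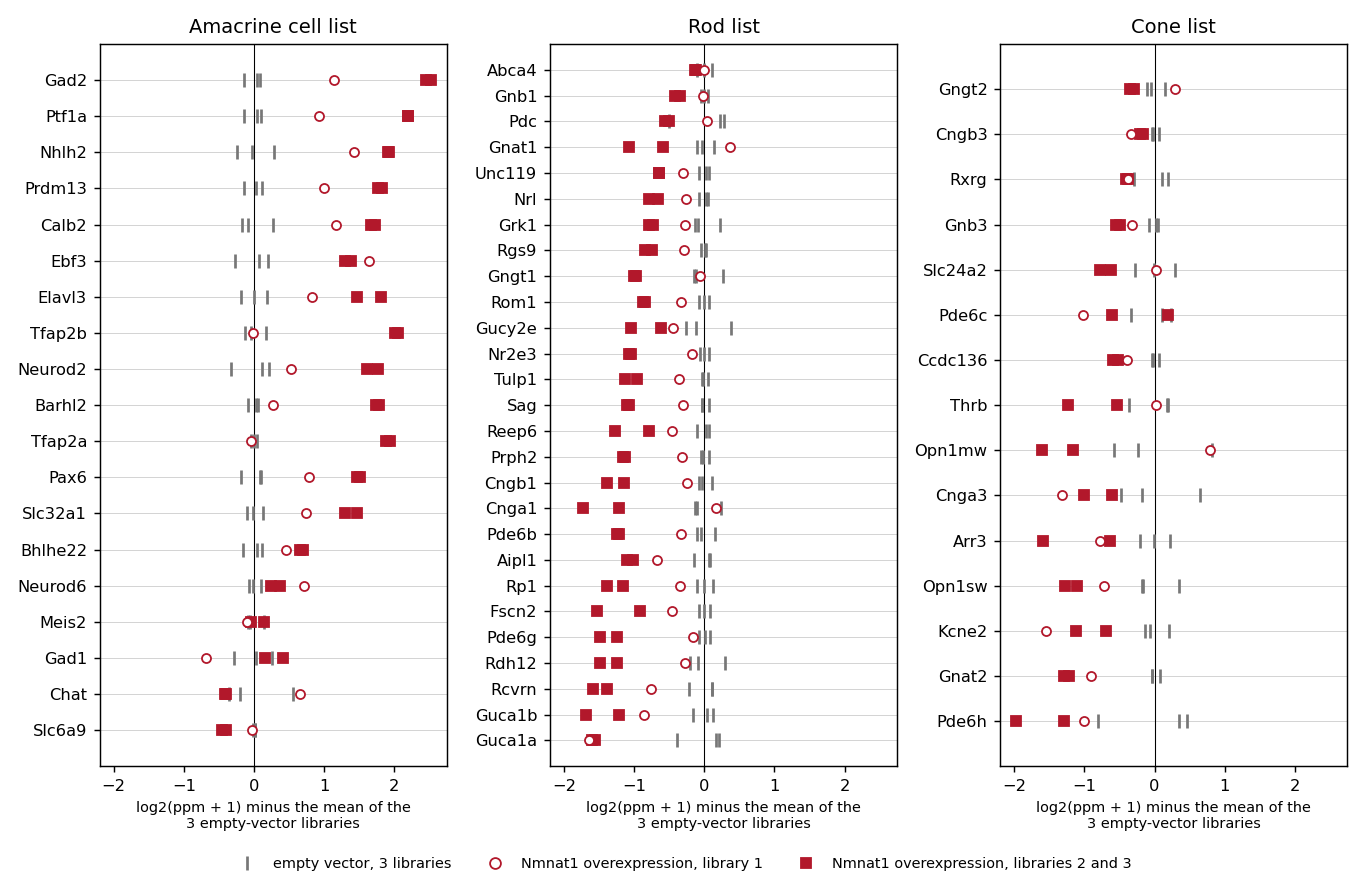
Difference of each library from the mean of the 3 empty-vector libraries, in log2(ppm + 1), for the tested genes of the amacrine, rod and cone lists, with 1 rod gene not shown; ticks are empty-vector libraries, open circles Nmnat1 library 1 and filled squares Nmnat1 libraries 2 and 3. Most amacrine genes lie to the right and most rod genes to the left, with library 1 between the empty vector and libraries 2 and 3 in most rod genes.

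Cone genes had a median of -0.58 in log2 over 15 tested, with 10 of 15 below the empty vector in every library (10.1% of all genes tested) and none past the threshold. Without the libraries numbered 1 the median was -0.70 and 6 of 15 were called lower (3.61% of all genes tested). Gnat2, the cone transducin, was at 52.7, 56.8 and 52.6 ppm against 28.4, 21.4 and 22.7 ppm (-1.14 ± 0.19, adjusted p = 0.0581 by limma, and 0.0173 without the libraries numbered 1). Opn1sw, the short-wave cone opsin, was at 235, 164 and 162 ppm against 112, 85.1 and 75.5 ppm. Library 1 of Nmnat1 was as low as libraries 2 and 3 in Kcne2 (29.2, 37.4 and 30.9 ppm against 10.4, 14.3 and 19.7 ppm), a potassium channel subunit seen in young cones. Gnb3, Ccdc136 and Arr3 differed by -0.46 ± 0.10, -0.50 ± 0.09 and -1.002 ± 0.33.

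Regulators of photoreceptor fate formed a further list that is not independent of the others. It shares Nrl and Nr2e3 with the rod list and Thrb and Rxrg with the cone list. Nrl, which commits precursors to rods, was at 300, 304 and 278 ppm against 246, 186 and 169 ppm, and Nr2e3, its target that represses cone genes, at 1542, 1463 and 1417 ppm against 1302, 698 and 713 ppm. Crx, the activator of photoreceptor genes, was at 809, 758 and 762 ppm against 717, 588 and 586 ppm (-0.31 ± 0.10, adjusted p = 0.313 by limma). Otx2, the factor above Crx, was at 1946, 1797 and 1815 ppm against 1716, 1611 and 1596 ppm. The list as a whole had a median of -0.31 over 11 genes, 6 of them below the empty vector in every library (10.1% of all genes tested) and none past the threshold, and Rorb and Neurod1 overlapped between the groups. Without the libraries numbered 1 the median was -0.30, with 1 gene called higher and 6 lower (4.43% and 3.61% of all genes tested).

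Among the other retinal types, ganglion cell genes had a median of 0.52 over 14 tested, 3 of them (Ebf1, Stmn2 and Nefm) higher in each library (7.74% of all genes tested) and none called, against 5 called higher without the libraries numbered 1; the empty-vector mean was under 1 ppm in 3 of the 14. Prox1, a horizontal and amacrine cell factor, was at 27.7, 28.2 and 27.7 ppm against 51.7, 61.6 and 53.04 ppm (0.96 ± 0.16, adjusted p = 0.0581 by limma). In the neurogenic precursor list (18 tested, median 0.12, none called, and 5 higher and 1 lower without the libraries numbered 1) the bHLH gene Neurog2 was at 17.4, 9.74 and 11.0 ppm against 18.2, 44.1 and 35.2 ppm and Sox11 at 5.68, 5.52 and 4.40 ppm against 10.2, 13.3 and 13.5 ppm. Progenitor, Müller glia and bipolar lists had medians of 0.17, 0.29 and 0.02 with no gene called. Without the libraries numbered 1, 7 of 23 progenitor genes were called higher and 1 lower, 10 of 22 Müller glia genes higher and 1 lower, and 2 of 12 bipolar genes in each direction. Over all genes tested, that fit called 4.43% higher and 3.61% lower. Pcp2, a bipolar cell gene, was lower in each Nmnat1 library (672, 617 and 600 ppm against 493, 432 and 418 ppm). The lists of microglia, pigment epithelium, lens and blood, vessels and astrocytes had lower summed levels than any list of retinal neurons. The summed level of the microglia list was 18.2 to 27.5 ppm with the empty vector and 18.3 to 27.2 ppm with Nmnat1, that of the pigment epithelium list 69.5 to 94.4 ppm and 51.8 to 76.9 ppm, and that of the lens and blood list 7.02 to 9.57 ppm and 6.47 to 13.8 ppm. The endothelium and pericyte list summed to 108 to 121 ppm and 95.5 to 150 ppm. The astrocyte list was the one that did not overlap, at 46.1 to 62.3 ppm with the empty vector and 73.8 to 89.5 ppm with Nmnat1, with none of 7 genes called; its part in the other results was not tested.

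In NAD metabolism the transgene was the one gene that passed in the fit of 9 libraries. Of 21 tested synthesis and salvage genes only Nmnat1 was called (median -0.12); without the libraries numbered 1, Nmnat1 and Nmnat2 were called higher and Nadk2, Pnp and Nt5e lower (median -0.30). Nampt, the rate-limiting enzyme of salvage, was at 14.7, 12.2 and 10.8 ppm against 11.9, 10.1 and 9.70 ppm, with overlap. Nadk2, the mitochondrial NAD kinase, was at 99.2, 101 and 98.5 ppm against 69.3, 71.0 and 78.9 ppm (-0.44 ± 0.11, adjusted p = 0.180 by limma). The purine and nicotinamide riboside phosphorylase gene Pnp was at 246, 217 and 230 ppm against 191, 176 and 187 ppm, and Nt5e, the ecto-nucleotidase CD73, at 209, 175 and 168 ppm against 168, 112 and 133 ppm. Among 21 NAD consumers none was called, against 1 in each direction without the libraries numbered 1, and the mitochondrial deacylase gene Sirt3 was lower in each library (63.1, 69.2 and 77.1 ppm against 54.1, 50.3 and 47.0 ppm; adjusted p = 0.190 by limma, and 0.0177 without the libraries numbered 1). Over all genes tested, the fit without those libraries called 4.43% higher and 3.61% lower, and 1 of 21 is near both shares.

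The energy and stress lists had medians near that of all genes. Summed levels were nevertheless lower in each Nmnat1 library for glycolysis (13257 to 13679 ppm against 10050 to 11076 ppm). The same held for the respiratory chain (25426 to 26132 ppm against 23645 to 24180 ppm). The TCA list summed to 4770 to 4794 ppm against 4316 to 4613 ppm. Sums of the NAD consumer, cholesterol synthesis and synaptic vesicle lists were also lower in each Nmnat1 library. The last held 4266 to 4364 ppm against 3748 to 4053 ppm. Sums of the amacrine, horizontal and astrocyte lists were higher in each. Nmnat1 itself took 1.48% to 2.78% of the Nmnat1 columns, which lowers every other share, and its part in these sums was not tested. In the respiratory chain 12 of 40 genes were lower without overlap and 2 higher (10.1% and 7.74% of all genes tested). In the TCA list 7 of 24 were lower and 1 higher. Glycolysis genes had a median of -0.10 over 22 tested with none called, and 7 were lower in each Nmnat1 library (10.1% of all genes tested). The fit without the libraries numbered 1 called 2 higher and 6 lower (4.43% and 3.61% of all genes tested). Lowest were the abundant Ldha (7062, 7079 and 7184 ppm against 5494, 4260 and 4231 ppm), Aldoa and Gpi1, with differences of -0.62 ± 0.13, -0.62 ± 0.13 and -0.57 ± 0.12. Ldhb, the other lactate dehydrogenase subunit, was higher in each library (275, 261 and 266 ppm against 290, 362 and 371 ppm). Respiratory chain subunits (40 tested, median -0.09), p53 targets (26, -0.14) and Bcl2 family and caspase genes (23, -0.00) held 1 called gene in all, Plk2; without the libraries numbered 1 they held 2, 1 and 0 higher and 5, 2 and 2 lower. Cdkn1a, the p53 target that arrests the cycle, overlapped between the groups. Slc17a7, the vesicular glutamate transporter of photoreceptor terminals, was at 183, 179 and 184 ppm against 118, 78.5 and 71.0 ppm (-1.05 ± 0.17, adjusted p = 0.0581 by limma). The synaptic vesicle list it belongs to had a median of -0.13 over 24 genes, with none called, and 2 higher and 5 lower without the libraries numbered 1.

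**Figure D4:**
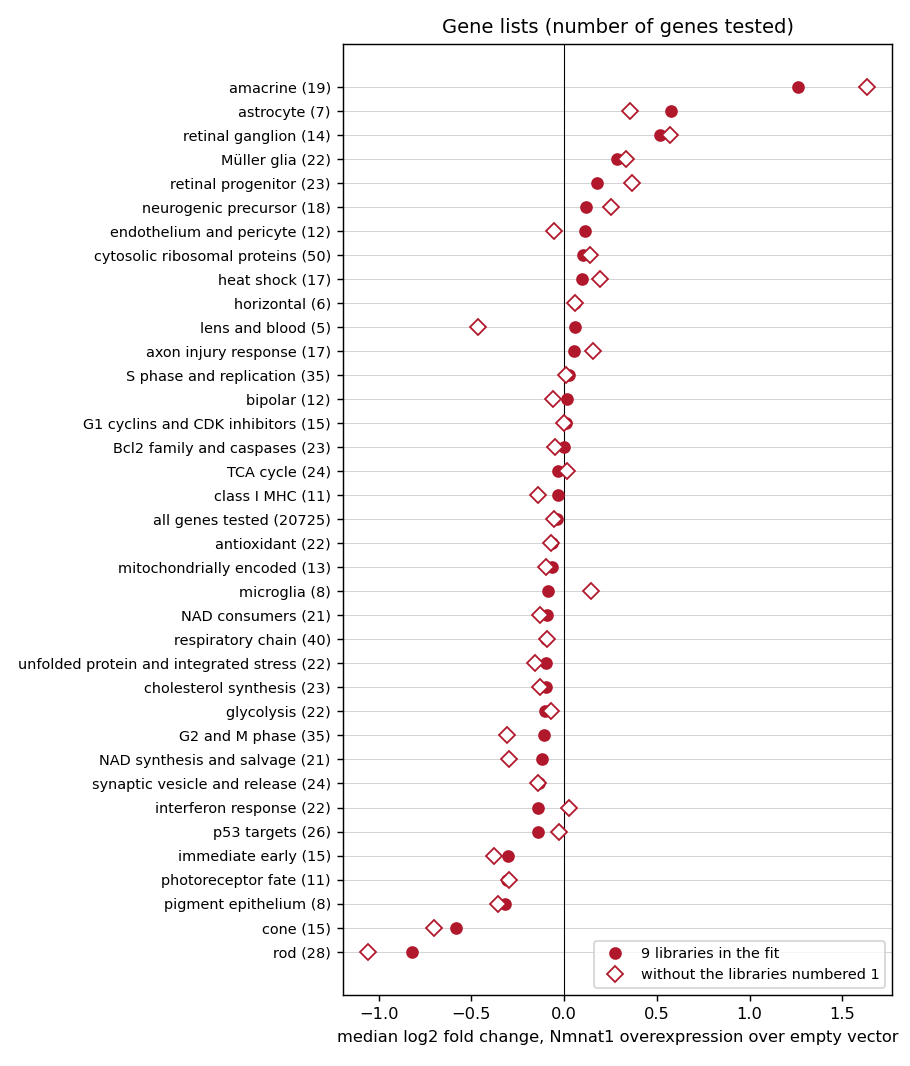
Median log2 fold change of Nmnat1 overexpression over empty vector for each of the 36 gene lists and for all genes tested, in the fit of 9 libraries (filled) and without the libraries numbered 1 (open). The amacrine list lies highest and the rod and cone lists lowest under both.

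Immediate early genes pointed both ways. Ier5 rose, as given above, and was the single gene called of 15. Egr1, the zinc-finger factor induced by growth factors and depolarization, was at 63.0, 79.7 and 80.3 ppm with the empty vector and at 46.3, 31.8 and 28.6 ppm with Nmnat1 (-1.06 ± 0.17, adjusted p = 0.0565 by limma, and 0.000457 without the libraries numbered 1). In this list 6 of 15 genes were lower in each library, Junb, Jun and Nr4a1 among them (10.1% of all genes tested). Without the libraries numbered 1, 5 were called lower (3.61% of all genes tested). Fos overlapped between the groups, at 88.3, 48.5 and 48.4 ppm against 79.5, 37.1 and 36.9 ppm, where both groups were high in library 1. Its difference was -0.30 ± 0.37 in log2, and the median of the list was also -0.30.

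Without the libraries numbered 1 the fit called 1666 genes (8.04%), 918 higher (4.43%) and 748 lower (3.61%), and the 25 genes were all among them. It called 13 of 19 amacrine genes higher and none lower. With libraries 2 and 3 of each group averaged into a single value instead, which leaves 2 values per group, Nmnat1 alone passed (1 gene by limma, with 716 at an unadjusted p under 0.05). This averaging also leaves fewer values and gives library 1 more weight in its group, and what removed the other calls was not tested.

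The genes with the largest differences in that fit of 6 libraries were partly ones that library 1 did not share. Gad2, Ptf1a, Xlr3b, Rpp25 and Tldc2 were higher in all 3 Nmnat1 libraries; Rpp25, a subunit of ribonuclease P, was at 3.65, 4.38 and 2.41 ppm against 6.69, 16.9 and 16.9 ppm. Runx1t1, a transcriptional corepressor, was at 9.18, 9.85 and 8.21 ppm against 8.48, 37.3 and 42.0 ppm. The alpha-tubulin gene Tuba1c was at 31.2, 57.0 and 54.2 ppm against 50.0, 9.996 and 10.2 ppm, and Minar2 at 4.40, 18.4 and 21.6 ppm against 18.4, 3.81 and 1.86 ppm. In Tuba1c and Minar2 the library numbered 1 lay on the other side in both groups. The cone phosphodiesterase subunit Pde6h (7.40, 17.6 and 19.1 ppm against 6.27, 2.72 and 4.96 ppm), Tmem52 and Cyp7a1 were lower in all 3. H3f3c, Pagr1a, Igkv2-95-2 and Ighv2-9, also called there, have near copies elsewhere, and Pde6h and Cfap61 overlap other genes, so their values are uncertain.

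The Nmnat2 overexpression libraries share the empty vector as control, so only the difference between the overexpressions is tested. The direct comparison of Nmnat1 with Nmnat2 overexpression called 4 genes (0.0193% of 20725): Nmnat1, Nmnat2, Ccn1 and the unnamed gene Gm6563. None of the 24 genes above was among them, and the median size of their difference between the overexpressions was 0.14 in log2, where that of all genes was 0.19. The largest was in Ighv2-8, at 4.51, 3.26 and 3.10 ppm with Nmnat2. Its difference Nmnat1 minus Nmnat2 was -1.96 in log2 (95% interval -2.83 to -1.10, adjusted p = 0.402 by limma). For Rd3l the difference was -0.27 (95% interval -0.52 to -0.02). Nhlh2 was at 74.1, 109 and 109 ppm and Guca1a at 33.8, 43.5 and 57.5 ppm with Nmnat2; the differences Nmnat1 minus Nmnat2 were 0.10 (95% interval -0.34 to 0.55) and 0.16 (-0.28 to 0.60) in log2. The amacrine list had a median difference of 0.19 and the rod list of 0.13 between the overexpressions, with no gene called in either list. A p that misses the threshold does not show that the overexpressions act alike. Nmnat1 itself was at 39.4, 42.4 and 45.6 ppm in the Nmnat2 libraries, above the empty vector. The title of Nmnat2 library 3 names Nmnat3, but its other label names Nmnat2, and it held 21014 ppm of Nmnat2 and 0.420 ppm of Nmnat3.

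Ccn1, a matricellular protein gene induced by serum and YAP, was at 17.3, 19.2 and 19.8 ppm with the empty vector, at 12.8, 8.30 and 10.1 ppm with Nmnat1 and at 25.7, 33.0 and 35.2 ppm with Nmnat2, so that the 3 groups did not overlap. Nmnat1 minus Nmnat2 was -1.51 ± 0.19 in log2 (adjusted p = 0.0480 by limma). This call lies near the threshold and was lost under 15 of 23 alternatives, among them no filter (adjusted p = 0.0672), median-of-ratios scaling (0.0847) and each empty-vector library left out; the adjusted p ranged from 0.000613 to 0.998 by limma. Egr1 followed the same order, with 86.7, 91.9 and 87.5 ppm in the Nmnat2 libraries, and its difference of -1.32 ± 0.17 did not pass with 9 libraries (adjusted p = 0.0518 by limma) and passed without the libraries numbered 1 (adjusted p = 0.000895).

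In the knockdown table, which has its own scramble controls and was scaled separately, the genes that rose with Nmnat1 were mostly lower with Nmnat1 knockdown. Of the 18 genes, 17 had the opposite sign there (94.4%, against 51.5% of all genes in both tables), while 2 of the 6 genes that fell did, and 0 of the 24 passed in that table, where 32 of 22233 genes did (0.144%; limma, 3 against 3 libraries). The amacrine list had a median of -0.88 in the knockdown, with 1 of 19 called: Calb2, at a mean of 91.4 ppm with scramble and 15.2 ppm with Nmnat1 knockdown (adjusted p = 0.0176 by limma). The rod list had a median of -0.04 and the cone list of -0.09 in the knockdown, with none called. Nmnat1 itself was at a mean of 19.0 ppm with scramble and 7.80 ppm with its knockdown, which did not pass (adjusted p = 0.130 by limma). Opposite signs in 2 tables are a description of these libraries and were not tested.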

How the data were processed

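Bulk RNA from sorted EGFP-positive cells was made into cDNA with SMART-Seq v4 from 1 ng of total RNA and into libraries with the Nextera DNA Flex kit, which keep no strand, per the labels' protocols. The authors deposited a signal per gene named TPM whose columns do not sum to the 1e+06 of a TPM. The submitters' processing notes name Salmon 0.11.3, sleuth 0.30.0 and GRCm38.p6, with no role or order. Here 1 incomplete line was dropped and each of the 9 columns was divided by its sum and multiplied by 1e+06 (ppm). Whole reads could be recovered only for genes with 1 transcript (81.0% to 85.0% of low values within 0.1 of a whole read, 19.7% to 22.0% with lengths shuffled), so no count test was run; depth comes from these genes. The 20725 of 34396 genes that reached 1 ppm in 3 or more of the 9 libraries were fitted as log2(ppm + 1) with limma 3.58.1 (R 4.3.3; trend, 3 groups in a single fit, 6 residual degrees of freedom, no block, Benjamini-Hochberg at 0.05, two-sided), after a test on simulated data. Fold changes on this scale understate low genes. GENCODE M21 on GRCm38 gave symbols and positions for 34356 gene IDs (99.88%).

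The comparison, its members and the 36 gene lists were chosen with earlier results of these data known, and list counts and medians are descriptions without a set test. Named genes are Nmnat1 to Nmnat3, the 12 highest and 12 lowest called genes with no overlap and at least 5 ppm in the higher group, 8 more each way from the fit without the libraries numbered 1, and up to 4 genes per list by unadjusted p; the remaining called genes, Ccn1 and other list members were named after their values were seen, and some list members are counted but not reported by name here. The 24 alternatives covered pseudocount, filter, scaling, groups, trend, weights, block and libraries left out; the deposited scale and the averaging of libraries 2 and 3 were chosen after seeing the data. Figures were drawn with matplotlib 3.10.9.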

Additional observations from a re-analysis of the deposited data

How the results depend on the processing

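The Nmnat1 difference passed under all 24 alternatives, between 9.41 and 9.89 in log2. The count of 25 genes was 25 and 21 with pseudocounts of 0.5 and 5 ppm, 33 with the column sum taken without Nmnat1 and Nmnat2, and 32 with 2 groups only. It was 16 with no filter, 54 with a filter at 5 ppm, 9 with median-of-ratios scaling (8 higher and 1 lower, where the main split was 19 and 6), 42 with quantile normalization, 2 with no trend and 1540 with array weights. It was 1666 without the 3 libraries numbered 1, 1079 without them and with 2 groups only, 1 when the values were taken as deposited (pseudocount 20), and 1 with libraries 2 and 3 averaged. Leaving out 1 library at a time gave 3 to 271 genes: 15, 4 and 3 without empty-vector libraries 1, 2 and 3, 271, 4 and 3 without Nmnat1 libraries 1, 2 and 3, and 225, 13 and 10 without those of Nmnat2. Without the libraries numbered 1 the count of 1666 was 773 with no filter, 1079 with 2 groups only, 221 with no trend, 537 on the deposited values and 69 to 1078 with 1 more library left out. The 4 genes that differed between the overexpressions were 25 with array weights, 38 without the libraries numbered 1, 2 with 2 groups only, 2 on the deposited values, 2 with libraries 2 and 3 averaged and 2 to 11 with 1 library left out. The cause of these moves was not tested, beyond the fewer samples or genes that some of them use.

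Same-numbered libraries of the 2 groups had deviations from their group means that correlated at 0.21, 0.14 and 0.07, so not every pair passed 0.1 and the numbers were not taken to pair the samples, although each empty-vector library correlated best with its own number. With the number as a replicate block 187 genes were called (102 higher and 85 lower), the 25 among them, and 4 between the overexpressions. No called gene reversed under any alternative. Gad1 turned from -0.04 to 0.27 with array weights, to 0.42 without the libraries numbered 1 with 3 or 2 groups, and to 0.09 and 0.28 without empty-vector or Nmnat1 library 1, within a range of -0.26 to 0.28 with 1 library left out. Counting noise limits genes of a few ppm, where 1 ppm of a 1 kb transcript is 11.3 to 16.8 reads.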
